A study of Mus musculus with 3 samples.

Results

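Wif1, Sfrp1, Sfrp2, Sfrp4, Frzb, Dkk2 and Dkk3, the secreted Wnt inhibitor genes described here, were chosen by symbol and are 7 of the 32285 genes counted in single cells of the mouse aorta. A further 75 genes of the same pathway (ligands, receptors, the R-spondin module, targets, intracellular components and other inhibitors) were listed to give their setting. The cells came from the whole aorta of male mice on a C57BL/6J background in which the human APOE2, APOE3 or APOE4 gene had replaced the mouse Apoe gene at its own locus. All mice started a Western diet (42% fat and 0.2% cholesterol) at 12 weeks of age and stayed on it for 16 weeks, and no other diet or genotype was compared here. Cells of digested aortas were combined into 1 pool per genotype (6 mice for APOE2, 5 for APOE3 and 7 for APOE4), and each pool gave 1 droplet library, so that a genotype is represented by a single library and differences between genotypes have no replicate check.

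Wnt proteins are secreted signals that bind Frizzled receptors together with the co-receptors Lrp5 and Lrp6, stabilize β-catenin and switch on target genes such as Axin2, while other Wnt proteins act through Ror and Ryk receptors without β-catenin. Secreted inhibitors act outside the cell. Wif1 and the secreted frizzled-related proteins Sfrp1, Sfrp2, Sfrp4 and Frzb bind the Wnt proteins themselves, the latter group through a domain that resembles the ligand-binding part of Frizzled, whereas Dkk2 binds the Lrp co-receptors and Dkk3 is the most divergent member of its family, with a less settled action. In arteries the pathway is known for its part in smooth muscle proliferation, phenotype change and calcification.

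Promoter sequences of 4 of the 7 genes were present in the RefSeq promoter table (GRCm38.p6, 250 bases before to 50 bases after the start that it uses for the gene). Those of Sfrp2 and Frzb, which were high in the same subsets of smooth muscle cells, and of Wif1, which was not, are printed 5′ to 3′ on the strand of the gene, with matches to CTTTG or its reverse complement CAAAG, the core letters bound by the TCF/LEF partners of β-catenin, in capitals.
Sfrp2 (chr3:83766071-83766370, + strand): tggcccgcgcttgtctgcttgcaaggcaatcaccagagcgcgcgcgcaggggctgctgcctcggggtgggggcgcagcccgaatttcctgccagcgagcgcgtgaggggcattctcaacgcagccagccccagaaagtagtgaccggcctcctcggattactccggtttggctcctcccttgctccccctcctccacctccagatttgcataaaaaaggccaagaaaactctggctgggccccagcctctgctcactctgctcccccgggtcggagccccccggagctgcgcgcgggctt
Frzb (chr2:80447347-80447646, − strand): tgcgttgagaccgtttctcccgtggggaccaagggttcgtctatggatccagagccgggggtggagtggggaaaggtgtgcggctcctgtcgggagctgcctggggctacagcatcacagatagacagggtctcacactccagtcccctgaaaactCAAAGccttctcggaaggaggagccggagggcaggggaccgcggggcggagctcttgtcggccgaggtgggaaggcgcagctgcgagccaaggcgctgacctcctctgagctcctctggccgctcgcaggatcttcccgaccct
Wif1 (chr10:121033754-121034053, + strand): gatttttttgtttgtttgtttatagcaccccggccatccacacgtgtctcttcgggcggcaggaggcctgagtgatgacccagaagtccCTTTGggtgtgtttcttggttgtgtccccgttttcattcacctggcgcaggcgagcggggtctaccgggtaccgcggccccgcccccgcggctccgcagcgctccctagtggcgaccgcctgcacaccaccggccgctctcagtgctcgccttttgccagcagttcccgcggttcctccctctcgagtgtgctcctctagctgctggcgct
Frzb held 1 match on the reverse strand and Wif1 held 1 on the forward strand, as did Dkk2, while Sfrp2 held none within these 300 bases. Of 32851 promoters of this length, 53.9% held the 5 letters on either strand, so that a match is common and is given only as a description. The GC content was 66.0% for Sfrp2, 64.7% for Frzb, 63.0% for Wif1 and 57.7% for Dkk2, against a median of 52.7% over all promoters. All 7 genes are protein coding, and their bodies span (mm10) 10:121033960-121100650 for Wif1, 8:23411502-23449632 for Sfrp1, 3:83766321-83774316 for Sfrp2, 13:19623104-19632994 for Sfrp4 and 3:132085292-132180304 for Dkk2 on the forward strand, and 2:80411970-80447625 for Frzb and 7:112116017-112159057 for Dkk3 on the reverse strand. For Frzb and Wif1 these bodies begin at other positions than the starts used for the promoters. Most of the printed Frzb stretch, with its match, lies within the body.

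The deposited tables held 12288, 7247 and 8971 cell barcodes for APOE2, APOE3 and APOE4, of which 11772, 6737 and 8248 had at least 200 genes and under 20% mitochondrial UMIs (unique molecular identifiers, counted molecules). The retained cells had median UMI counts of 12047, 17618 and 13521.5, and pairs of libraries shared 14 to 27 barcodes among them. Clustering was done without the 7 genes and the 75 pathway genes, and clusters were named from marker genes as smooth muscle-like (8182, 4748 and 6130 cells), fibroblast-like (1142, 600 and 847), macrophage-like (476, 146 and 176), endothelial-like (155, 33 and 38), T lymphocyte-like (121, 18 and 105), B lymphocyte-like (37, 11 and 276) or neutrophil-like (56, 10 and 7). The summed level of the 10 smooth muscle markers was 46940 to 55360 CPM in smooth muscle-like cells and 4098 to 6268 CPM in fibroblast-like cells, and that of the 10 fibroblast markers was 1173 to 1597 CPM and 26530 to 36270 CPM. CPM here are the UMIs of a gene scaled to counts per 1e6 UMIs summed over all cells of a class in a library, and intervals given with them are exact 95% Poisson intervals that cover counting error only. The endothelial-like class was mixed, since by its own markers 111 of its 226 cells were endothelial-like and 35 fibroblast-like, and 8.11 to 17.4% of the cells of a library lay in clusters left unnamed. Mouse Apoe was counted in all 3 libraries, at 163.3 to 170.6 CPM in smooth muscle-like cells, at 227.3, 501.3 and 329.9 CPM in fibroblast-like cells and at 549.8, 1070 and 642.8 CPM in macrophage-like cells, in the order APOE2, APOE3 and APOE4, so that its presence did not check the genotype labels.

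Wif1, which sequesters Wnt ligands, was a smooth muscle gene in all 3 libraries. Its level in smooth muscle-like cells, in the order APOE2, APOE3 and APOE4 kept below, was 86.5 (84.9 to 88.1), 107.2 (105.2 to 109.3) and 79.9 (78.2 to 81.6) CPM, and in fibroblast-like cells it was 8.30, 10.2 and 7.81 CPM. The libraries of the first class did not overlap those of the second, and the fibroblast-like level was 0.096, 0.0949 and 0.0978 times the smooth muscle-like level. That ratio moved with how the fibroblast-like cells were taken, to 0.0557, 0.0211 and 0.0463 without the cells of the highest doublet (Scrublet) scores and to 0.176, 0.266 and 0.0504 with classes drawn from each cell's own markers, and was 0.327 in APOE3 at finer clustering. With each cell thinned to 1000 UMIs, 6.55%, 8.26% and 6.87% of smooth muscle-like cells held a Wif1 UMI (median depth before thinning 13652, 19712.5 and 15260.5 UMIs), against 0.225% and 0.746% of macrophage-like cells in APOE2 and APOE3 (7830 and 7666.5 UMIs) and 0 of 154 in APOE4, which allows a share of up to 1.95%. Levels in the remaining classes rested on 47 UMIs or fewer in each library, and their order among themselves and beside fibroblast-like cells changed from library to library, while the 184.5 CPM in neutrophil-like cells of APOE3 came from 9 UMIs in 1 cell.

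Sfrp1, Sfrp2 and Sfrp4, which bind Wnt ligands through a Frizzled-like domain, were higher in fibroblast-like than in smooth muscle-like cells in every library. Sfrp4 was at 371.2 CPM (361.1 to 381.4), 271.9 CPM (260.2 to 283.9) and 304.4 CPM (293.2 to 315.9) in fibroblast-like cells, and at 7.95, 3.79 and 3.93 CPM in smooth muscle-like cells. Sfrp1 was at 244.8 CPM (236.6 to 253.2), 233.1 CPM (222.4 to 244.3) and 71.7 CPM (66.3 to 77.5) in fibroblast-like cells, and at 5.96, 4.16 and 4.43 CPM in smooth muscle-like cells. The class levels were thus separated 46.7-, 71.7- and 77.6-fold for Sfrp4 and 41.0-, 56.0- and 16.2-fold for Sfrp1. In APOE2 the separation of Sfrp4 was 89.4- and 83.8-fold at coarser and finer clustering. Sfrp2 was at 660.5 CPM (647.0 to 674.1), 1658 CPM (1629 to 1688) and 1362 CPM (1338 to 1387) in fibroblast-like cells and at 274.1, 262.1 and 235.0 CPM in smooth muscle-like cells, a separation of 2.41-, 6.33- and 5.80-fold. Sfrp2 was therefore well represented in both classes, with a UMI in 13.8%, 15.6% and 15.3% of smooth muscle-like cells and 23.1%, 34.5% and 38.2% of fibroblast-like cells at 1000 UMIs, against 2.70%, 1.49% and 1.95% of macrophage-like cells. The median depths before thinning were 10468, 11069 and 9494 UMIs in fibroblast-like cells and 7830, 7666.5 and 7288 UMIs in macrophage-like cells.

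Sfrp1 was also high in the small endothelial-like class, at 807.7 CPM (760.6 to 856.9), 151.3 CPM (101.3 to 217.3) and 663.7 CPM (553.7 to 789.1). Few cells carried it, since 355 of the 1098 UMIs in APOE2 lay in 1 cell and 85.6% in 10 cells. Among all kept cells, those called endothelial-like by their own markers numbered 88, 9 and 16, of which 86, 9 and 16 lay in the class, and there Sfrp1 was at 1042, 194.1 and 1027 CPM, and Sfrp2 was at 9.67 CPM in APOE2 with no UMI in APOE3 and APOE4. The order of Sfrp1 levels, endothelial-like above fibroblast-like above smooth muscle-like, held in APOE2 and APOE4, while in APOE3 the endothelial-like value of 151.3 CPM lay below the fibroblast-like one. Sfrp4 in the endothelial-like class (20.6, 5.22 and 10.4 CPM, from 28, 1 and 2 UMIs) and in macrophage-like cells (4.05, 3.78 and 2.56 CPM) overlapped the smooth muscle-like range.

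Frzb, a secreted frizzled-related protein first known from cartilage, and Dkk3 did not separate the main classes in the same way. Frzb was at 44.0 CPM (42.8 to 45.2), 21.9 CPM (21.0 to 22.8) and 18.3 CPM (17.5 to 19.1) in smooth muscle-like cells and at 30.5 CPM (27.6 to 33.5), 29.2 CPM (25.5 to 33.3) and 20.1 CPM (17.3 to 23.3) in fibroblast-like cells. The 2 classes overlapped, with the smooth muscle-like level higher in APOE2, lower in APOE3 and not separable from the fibroblast-like level in APOE4, where the log2 difference of 0.14 had an interval from −0.09 to 0.36. This order in APOE2 depended on the clustering, since the fibroblast-like level was 1.05, 1.37 and 1.17 times the smooth muscle-like level at coarser and 1.62, 2.45 and 2.27 times at finer clustering. With classes drawn from each cell's own markers, the fibroblast-like Frzb level was 2.53, 2.88 and 2.52 times the smooth muscle-like level, higher in every library. Dkk3 was at 200.2, 235.9 and 163.4 CPM in smooth muscle-like cells and at 158.8, 236.4 and 183.7 CPM in fibroblast-like cells, and these ranges overlapped too. In macrophage-like cells Dkk3 was at 41.3, 32.5 and 43.5 CPM and Frzb at 9.37, 3.78 and 7.68 CPM, below both mesenchymal classes in each library. For Dkk3 the endothelial-like (28.0, 36.5 and 20.7 CPM) and macrophage-like levels changed order between libraries.

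Dkk2, which binds Lrp co-receptors, was counted mainly in a few cells of the APOE2 library. Smooth muscle-like cells held 145, 1 and 6 Dkk2 UMIs, and fibroblast-like cells held 19, 14 and 4. The 145 UMIs came from 19 cells, with 92.4% of them in 10 cells. The highest Dkk2 level was in endothelial-like cells of APOE2, at 61.1 CPM (48.6 to 75.7) from 83 UMIs, against 20.9 CPM from 4 UMIs in APOE3 and 0 UMIs in APOE4, which allows up to 15.6 CPM. No Dkk2 UMI was found in T lymphocyte-like, B lymphocyte-like or neutrophil-like cells.

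**Figure D1:**
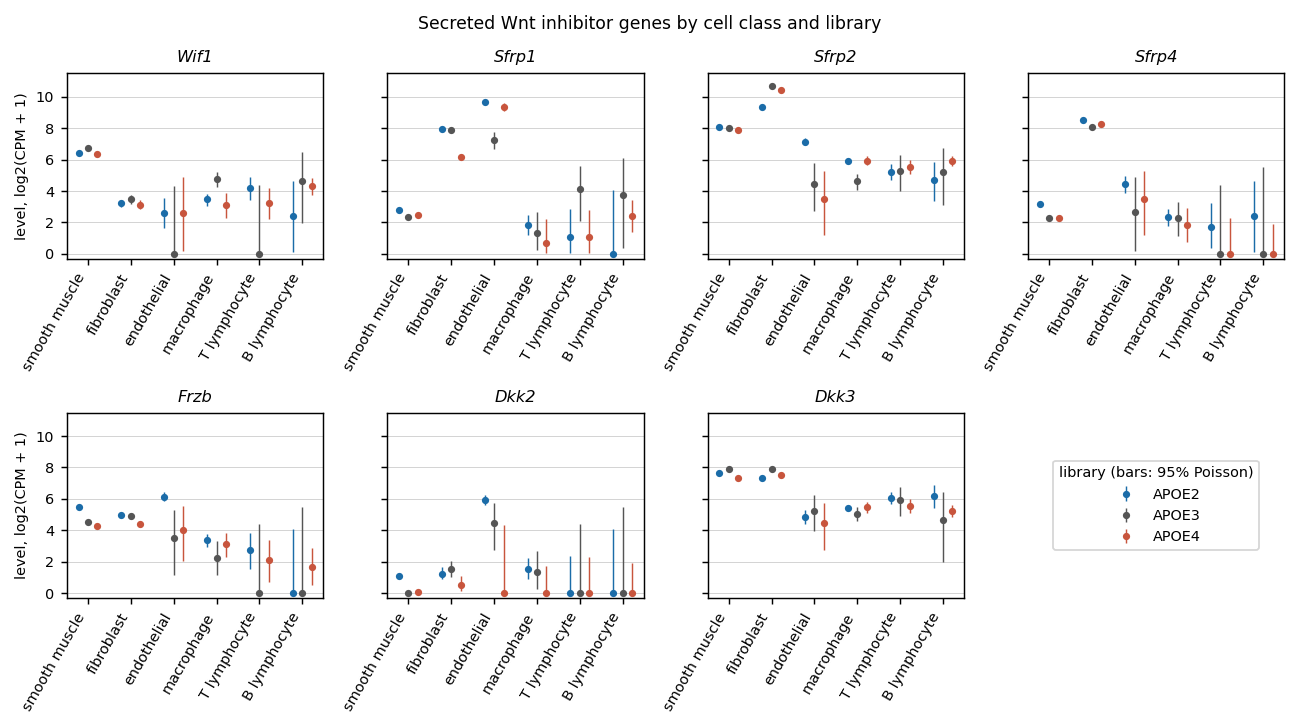
Levels of the 7 inhibitor genes (log2 of CPM + 1) by cell class, 1 point per library with its 95% Poisson interval, neutrophil-like cells not drawn. Wif1 is highest in smooth muscle-like cells, with 79.9 to 107.2 CPM, and Sfrp4 in fibroblast-like cells, with 271.9 to 371.2 CPM, in all 3 libraries, while the 2 classes overlap for Dkk3.

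The other Wnt pathway genes divided between the classes in both directions. With the 3 libraries summed, smooth muscle-like cells held 1 of 19 ligand genes (Wnt16, 58.2 CPM), 10 of 17 receptor and co-receptor genes, 4 of 9 R-spondin module genes, 1 of 9 other secreted inhibitors (Sost, a bone-associated inhibitor that binds Lrp co-receptors, 857.8 CPM), 1 of 9 targets (Nkd1, 76.4 CPM) and 10 of 12 intracellular components at 10 CPM or more. Fibroblast-like cells held 4 of 19 ligands at that level, among them Wnt5a, which signals through Ror receptors, at 116.9 CPM. They also held 11 of 17 receptors, 5 of 9 R-spondin module genes, 3 of 9 targets and 11 of 12 components. Sost was the 1 of 9 other inhibitors, at 65.5 CPM. Macrophage-like, T lymphocyte-like and B lymphocyte-like cells held more Sost, at 165.0, 149.6 and 197.4 CPM. Its source in these classes was not tested, and the fibroblast-like level is not taken as expression. The same holds for the R-spondin module gene Lgr6, at 16.4 CPM in fibroblast-like cells and 29.0, 35.75 and 34.5 CPM in those 3 classes. The target Nkd1 was at 15.7 CPM in fibroblast-like and 16.75 CPM in macrophage-like cells. Sost, Wnt16 and the R-spondin receptor gene Lgr6 were lower in fibroblast-like than in smooth muscle-like cells in all 3 libraries, as was Wif1, at 0.0713 to 0.0857, 0.0517 to 0.11 and 0.0983 to 0.112 times the smooth muscle-like level. Wnt5a (10.4- to 22.8-fold), the receptor gene Ror2 (12.5- to 47.0-fold), the Frizzled gene Fzd4 (6.63- to 7.05-fold) and the target Ccnd1, a cyclin gene (at least 9.13-fold), were higher in fibroblast-like cells, as were Sfrp1, Sfrp2 and Sfrp4.

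Within smooth muscle-like cells, Sfrp2 and Frzb, and Sfrp4 in APOE3 and APOE4, were concentrated in a small cluster (278, 146 and 242 cells). The leading genes of this cluster were Adamtsl1, Prss12, the homeobox gene Dlx6, Tfap2b and Coch. Its Sfrp2 level was 1799, 2335 and 1336 CPM in APOE2, APOE3 and APOE4, against 146 to 196 CPM in the 3 libraries together for each of the 6 clusters that remain when the 2 clusters described next are also set aside. Its Frzb level was 264.6, 324.4 and 192.8 CPM, against 10.6 to 21.0 CPM in those 6 clusters. With 3.40%, 3.07% and 3.95% of the smooth muscle-like cells, the cluster held 25.7%, 26.3% and 27.1% of the Sfrp2 UMIs of the class, 23.6%, 43.8% and 50.3% of its Frzb UMIs and 8.58%, 28.5% and 38.2% of its Sfrp4 UMIs. Wif1 was at 70.7, 70.8 and 83.0 CPM there, against 86.5, 107.2 and 79.9 CPM in the class as a whole. Dkk3 was at 182.4, 212.3 and 221.8 CPM against 200.2, 235.9 and 163.4 CPM. Both were thus below the class in APOE2 and APOE3 and above it in APOE4, with smaller differences than Sfrp2 and Frzb. These cluster levels are a description, since the clusters were drawn from the same cells. At finer clustering, 561 cells with Adamtsl1, Dlx6 and Prss12 among their leading genes were named smooth muscle-like. A further 106 cells led by Hhip, with Adamtsl1, Prss12 and Coch also leading, were named fibroblast-like. Those had 9 of the 10 fibroblast markers raised at least 2-fold, and the part of such cells in the cluster levels was not tested.

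Choosing the cells by Dlx6 and Prss12 counts alone, without the cluster, gave 196, 110 and 159 smooth muscle-like cells with both genes, 85.4% of which lay in that cluster. Sfrp2 in these cells was at 2075, 2313 and 1378 CPM, against 168.8, 191.7 and 163.9 CPM in cells with neither gene, a ratio of 12.3, 12.1 and 8.41. Frzb was at 325.4, 326.3 and 189.4 CPM against 26.3, 12.2 and 8.95 CPM, a ratio of 12.4, 26.7 and 21.1, and Sfrp4 was at 67.9, 31.3 and 26.2 CPM against 4.81, 2.63 and 2.29 CPM, a ratio of 14.1, 11.9 and 11.5. The Sfrp4 level of APOE2 rested on 1 cell with 252 of the 335 UMIs, without which it was at 16.95 CPM and the ratio was 3.52. All 3 genes were higher in Dlx6 and Prss12-positive cells of each library, also without the cell richest in each. The share of all genes that did so is not given. These 3 genes had been named from the cluster that held most of the positive cells. Median UMI counts were 22016.5, 18510 and 22697 in positive and 13420, 19654.5 and 15057 in negative cells, and these subsets were cut without thinning. For Wif1 the ratios were 0.899, 0.561 and 0.998 and for Dkk3 1.04, 1.01 and 1.41, and Sfrp1 was represented by 15, 3 and 1 UMIs in the positive cells.

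A second cluster, led by Spp1, Chad, Vcam1, Lcn2 and Timp1 (684, 311 and 439 cells), differed between the libraries in its inhibitor genes. Frzb was at 159.6 CPM there in APOE2, above the 26.95 and 24.7 CPM of the other libraries, and Sfrp4 was at 37.15, 7.94 and 6.87 CPM. The cluster held 41.9%, 9.46% and 10.5% of the Frzb UMIs and 54.0%, 16.1% and 13.6% of the Sfrp4 UMIs of smooth muscle-like cells, with 8.36%, 6.55% and 7.16% of the cells. The APOE2 cell with 252 Sfrp4 UMIs, which was positive for Dlx6 and Prss12, lay in this cluster. Without it the APOE2 level was 19.9 CPM and the share 38.5%. The cluster also held 116 of the 145 Dkk2 UMIs of APOE2, and 0 and 2 Dkk2 UMIs in APOE3 and APOE4. Sfrp2 was at 662.0, 357.4 and 362.7 CPM, above the other smooth muscle clusters apart from the Dlx6 cluster in every library. Another cluster, led by Tnnt2 and Hand2, supplied 2101 of its 2884 cells from APOE2, and there Wif1 was at 24.7, 107.5 and 69.7 CPM and Sfrp2 at 56.3, 205.9 and 167.5 CPM, both lowest in APOE2.

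The 2 fibroblast-like clusters divided Sfrp1 from Sfrp2. In the cluster led by Fmod, Inmt and Tgfbi (582, 413 and 642 cells), Sfrp2 was at 1313, 2410 and 1685 CPM and Sfrp1 at 161.5, 111.9 and 55.5 CPM. In the cluster led by Opcml, Sdk1 and Dpp4 (560, 187 and 205 cells), Sfrp2 was at 134.8, 335.3 and 578.7 CPM and Sfrp1 at 311.9, 446.6 and 111.1 CPM. The latter cluster held 70.5%, 69.4% and 45.2% of the Sfrp1 UMIs but 11.3%, 7.32% and 12.4% of the Sfrp2 UMIs of the class. Sfrp4 was near evenly spread, at 407.1, 252.6 and 294.6 CPM in the former cluster and 342.1, 305.7 and 328.2 CPM in the latter, while Dkk3 was higher in the former (219.4, 303.8 and 218.8 CPM) than in the latter (109.9, 117.8 and 98.7 CPM) in all 3 libraries.

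**Figure D2:**
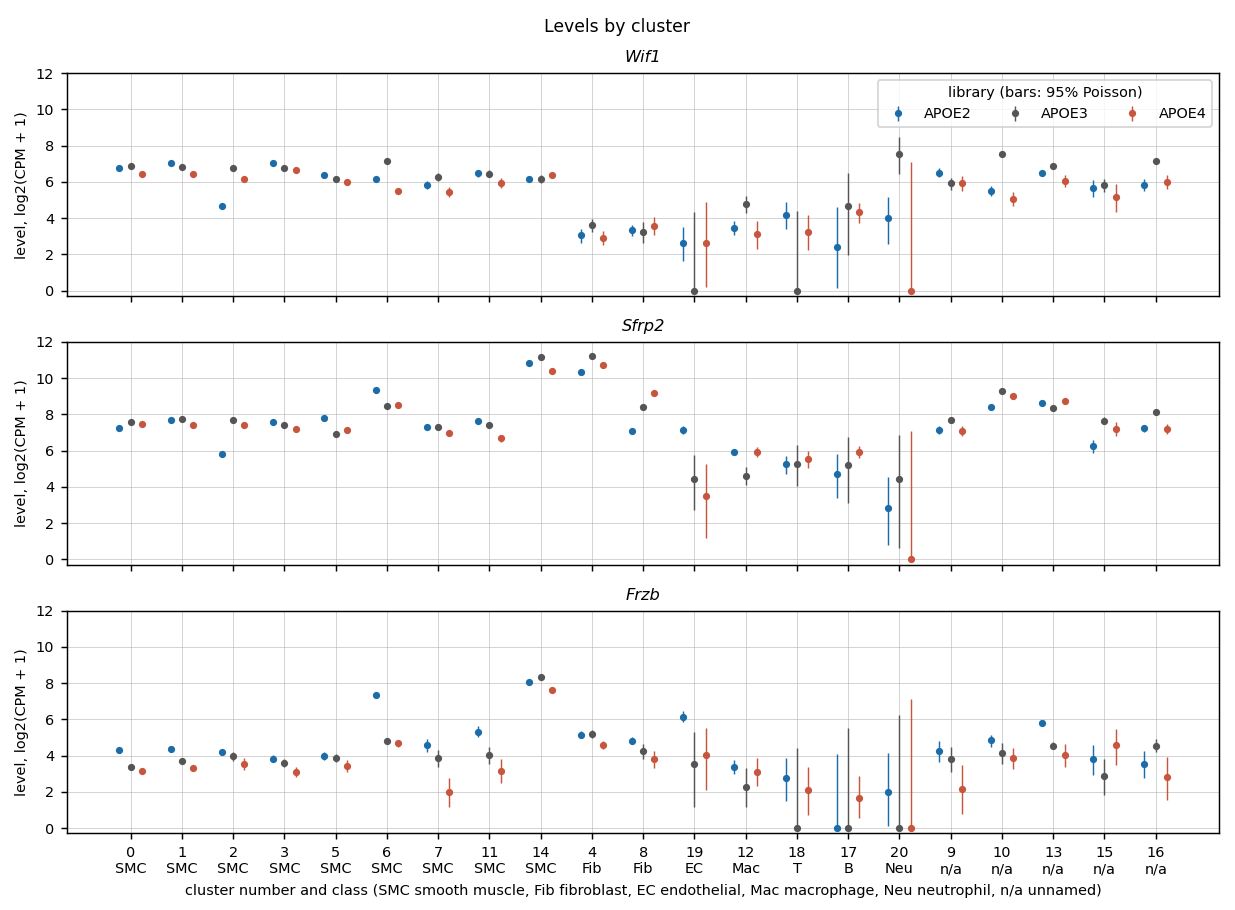
Levels of Wif1, Sfrp2 and Frzb (log2 of CPM + 1) in each of 21 clusters, 1 point per library with its 95% Poisson interval, clusters ordered by class. Among smooth muscle clusters Sfrp2 and Frzb are highest in cluster 14, led by Adamtsl1, Prss12 and Dlx6, in all 3 libraries, while the fibroblast cluster led by Fmod and Inmt is higher for Sfrp2 in APOE3 (2410 CPM) and APOE4 (1685 CPM), and Wif1 stays between 24.7 and 141.5 CPM in the clusters led by Spp1 and by Tnnt2 and does not peak in cluster 14.

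To ask whether the genes differ along the aorta, smooth muscle-like cells with Hand2, a transcription factor gene of the arch, were compared with cells that had Hox genes of the descending aorta. Wif1, Sfrp1, Sfrp2 and Dkk3 were higher in Hand2-positive cells in each of the 3 libraries. Wif1 was at 100.7, 149.5 and 141.4 CPM in Hand2-positive cells of APOE2, APOE3 and APOE4, and at 68.3, 72.6 and 57.8 CPM in Hox-positive cells, with no overlap between the subsets. Its fitted difference was 0.99 on the log2 scale (SE 0.119, adjusted p = 0.0023 in edgeR's quasi-likelihood test with Benjamini-Hochberg adjustment, library as block), or 1.99-fold. Sfrp2 was at 222.5, 256.1 and 305.3 CPM against 158.7, 111.1 and 117.0 CPM, a log2 difference of 1.05 (SE 0.152, edgeR adjusted p = 0.0049). The subsets did not overlap for Sfrp2, or for Sfrp1, which was at 6.58, 6.42 and 5.99 CPM against 3.49, 2.42 and 3.68 CPM (log2 difference 1.02, SE 0.151, edgeR adjusted p = 0.0053). For Dkk3 the higher subset of one library overlapped the lower subset of another, at 215.0, 251.3 and 175.3 CPM against 164.0, 208.1 and 153.1 CPM, with a small difference in the same direction in all 3 (log2 difference 0.31, SE 0.0451, edgeR adjusted p = 0.0049).

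In all, 4 of the 6 inhibitor genes tested passed the threshold of 0.05 between Hand2-positive and Hox-positive cells, all higher, where 15.9% of 14585 genes passed in either direction, and the median log2 difference was 0.78 for the 6 genes and −0.01 for all genes. Frzb was at 38.1, 13 and 19.0 CPM against 24.0, 14.7 and 8.78 CPM and did not pass (log2 difference 0.56, SE 0.198, edgeR adjusted p = 0.11), although it did without the APOE3 library (0.87, edgeR adjusted p = 0.0036). Sfrp4 did not pass either (−0.77, SE 0.523, edgeR adjusted p = 0.39), and its sign came from APOE2, where it was at 4.05 CPM against 18.7 CPM (8.74 CPM without the cell with 252 UMIs), since without APOE2 the difference was 0.43. Dkk2 was too sparse to test, with 24 against 79 UMIs in APOE2. The p-values rest on 3 libraries that differ in genotype, and on the 2 sums of cells that each pool of mice gave. Here and in the contrasts below, the share of all genes whose subsets did not overlap is not given.

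Fibroblast marker genes moved with the Hand2 subset, as 7 of 10 were higher (Dpt, Dcn and Lum among them) and their summed level was 1455, 1304 and 1324 CPM in Hand2-positive cells against 1031, 931.0 and 794.3 CPM in Hox-positive cells, while 9 macrophage markers summed to 2.83 to 12.5 CPM. The part of these markers in the result was not tested. The Dlx6 and Prss12 cluster made up 2.07% of Hand2-positive and 0.357% of Hox-positive cells, and without its cells the same 4 genes passed, with Sfrp2 at 0.93 and Frzb at 0.22. Of the other Wnt genes, 0 of 1 tested inhibitor (Sost), 0 higher and 1 lower of 7 ligands, 1 higher and 2 lower of 15 receptors (Fzd1 up by 0.71 and Fzd4 down, at −0.69), 1 higher and 1 lower of 4 R-spondin module genes (Rspo3 0.27 and Lgr6 −0.24), 2 higher of 7 targets (Nkd2 1.90 and Myc 1.06) and 1 lower of 12 intracellular components (Tcf7l2, −0.28) passed in edgeR.

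Smooth muscle cells that leave the contractile state are known to gain Vcam1 and Timp1. Cells of the smooth muscle-like class with both genes were compared with those with neither. Frzb and Sfrp2 were higher in the positive cells of every library. Frzb was at 233.2, 72.4 and 52.2 CPM in Vcam1 and Timp1-positive cells of APOE2, APOE3 and APOE4 and at 20.6, 18.2 and 16.9 CPM in negative cells. The subsets did not overlap, and the fitted log2 difference was 2.40 (SE 0.333, edgeR adjusted p = 0.00079). Sfrp2 was at 966.1, 798.6 and 438.9 CPM against 175.1, 228.8 and 216.5 CPM, again without overlap, with a log2 difference of 1.70 (SE 0.243, edgeR adjusted p = 0.00093). The positive cells numbered 292, 76 and 72, and 69.8% of them lay in the Spp1 and Vcam1 cluster. Another 8.64% lay in the Dlx6 and Prss12 cluster, and these few cells carried most of the APOE3 signal, because outside that cluster Frzb was at 215.3, 16.5 and 32.4 CPM in positive and 16.2, 11.9 and 8.97 CPM in negative cells, and Sfrp2 at 869.6, 350.7 and 376.8 CPM against 142.9, 187.3 and 164.6 CPM. Both genes still passed without the cluster (Frzb 2.30, edgeR adjusted p = 0.0097, and Sfrp2 1.53, edgeR adjusted p = 0.0039). In the Spp1 and Vcam1 cluster, 8 of 10 smooth muscle markers reached 50% of their all-cell level, the fewest allowed for the class. At coarser and finer clustering, clusters led by Spp1 and Chad (667 and 701 cells) had 1 and 0 such markers and stayed unnamed. The contrast was not repeated with those classes, so whether Frzb and Sfrp2 rose within smooth muscle was not tested.

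The remaining calls in this contrast rested on 1 library or were near the threshold. Dkk2 was counted 114, 1 and 0 times in positive and 28, 0 and 6 times in negative cells, so that its log2 difference of 5.09 (SE 0.934, edgeR adjusted p = 0.0038) came from APOE2, and without that library it was too sparse to test. Sfrp4 was at 56.7 (25.5 without the cell with 252 UMIs), 1.82 and 7.94 CPM against 3.84, 3.74 and 3.47 CPM, with a log2 difference of 2.25 (SE 0.695, edgeR adjusted p = 0.044) that fell to 0.22 without APOE2 (edgeR adjusted p = 0.82). Of the 7 inhibitor genes only Wif1 was lower, at 83.3, 60.5 and 49.9 CPM against 84.2, 111.5 and 80.0 CPM (log2 difference −0.55, SE 0.173, edgeR adjusted p = 0.046). Wif1 differed little in APOE2 and had no call without APOE3 (−0.39, edgeR adjusted p = 0.15) or without APOE4 (−0.42, edgeR adjusted p = 0.20). The Spp1 and Vcam1 cluster as a whole held 9.49%, 10.1% and 4.34% of the Wif1 UMIs of the class, with 8.36%, 6.55% and 7.16% of its cells. Wif1 was thus not low in that cluster in APOE2 and APOE3. Dkk3 (0.01) and Sfrp1 (0.23) did not pass.

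Altogether 5 of 7 inhibitor genes passed, where 23.8% of 15494 genes did, with a median log2 difference of 1.70 for the 7 genes and −0.04 for all genes. All 10 fibroblast markers were higher in the positive cells, with a summed level of 8212, 3433 and 4807 CPM against 897.7, 1062 and 939.2 CPM, and all 10 smooth muscle markers were lower, at 0.369, 0.47 and 0.414 times the level of negative cells, while 9 macrophage markers summed to 5.10 to 11.65 CPM in positive cells and the part of these lists in the result was not tested. Positive cells were also deeper, with median UMI counts of 24480, 29168 and 21261 against 13751, 19564.5 and 15233. Sost, by contrast with Frzb and Sfrp2, was lower (193.2, 493.3 and 413.9 CPM against 641.3, 1102 and 993.6 CPM, log2 difference −1.46), and was the 1 other inhibitor tested. Of the other lists, 4 of 10 ligands were higher (Wnt11 2.55 and Wnt6 2.17) and 1 lower (Wnt9a, −0.89), 2 of 7 targets were higher (Ccnd1 4.84 and Myc 1.54) and 1 lower (Nkd1, −1.48), and 1 each of 15 receptors (Fzd2, −0.92), 5 R-spondin module genes (Lgr6, −0.66) and 12 components (Tcf7l2, −0.46) was lower by edgeR.

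Fibroblast-like cells were divided by Dpp4 and Pi16, markers of adventitial progenitor-type fibroblasts, against Hhip and Inmt. Sfrp2 and Dkk3 were lower, and Sfrp4 higher, in Dpp4 and Pi16 cells in all 3 libraries. Sfrp2 was at 317.7, 678.7 and 562.5 CPM in Dpp4 and Pi16 cells and at 618.1, 2405 and 1553 CPM in Hhip and Inmt cells, a log2 difference of −1.40 (SE 0.164, edgeR adjusted p = 0.00034). Dkk3 was at 130.9, 125.7 and 114.5 CPM against 202.2, 378.3 and 321.8 CPM, with no overlap (−1.21, SE 0.192, edgeR adjusted p = 0.0025). Sfrp4 was at 354.7, 135.1 and 203.3 CPM against 127.6, 81.1 and 82.4 CPM, again with no overlap between the subsets (1.22, SE 0.183, edgeR adjusted p = 0.0017). In each library both subsets were below the Sfrp4 level of the fibroblast-like class as a whole (371.2, 271.9 and 304.4 CPM). Sfrp2 did overlap between libraries, since APOE3 in the lower subset exceeded APOE2 in the higher one. In the 66 Hhip and Inmt cells of APOE2, 1 cell held 179 of the 373 Sfrp2 UMIs and 1 cell held 29 of the 77 Sfrp4 UMIs, and without the richest cell of each gene Sfrp2 was at 331.6 and Sfrp4 at 81.4 CPM there.

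These were 3 of 6 inhibitor genes tested, where 6.88% of 9277 genes passed, and the median log2 difference was −0.12 for the 6 genes. Sfrp1, which had differed between the clusters, did not pass here (197.5, 79.8 and 43.4 CPM against 291.7, 118.5 and 33.5 CPM, log2 difference −0.37, SE 0.194, edgeR adjusted p = 0.34). Wif1 (58, 21 and 29 UMIs against 0, 2 and 3) and Frzb (230, 32 and 40 UMIs against 4, 17 and 14) did not pass, and Dkk2 was too sparse to test. The subsets held 365, 109 and 213 cells against 66, 44 and 36, and the summed smooth muscle marker level was 3.20, 1.26 and 0.718 times as high in Dpp4 and Pi16 cells, with no marker of that list past the threshold. The Fmod-led cluster held 40.6% of the Dpp4 and Pi16 cells, and the Dpp4-led cluster held 30.1% of the Hhip and Inmt cells. Median UMI counts were 12841, 12390 and 11018 against 7815.5, 9895 and 9823.5, and these subsets were cut without thinning. Of the other Wnt genes, 2 of 6 ligands were higher, among them Wnt2 (23.2, 35.8 and 37.1 CPM against 0, 2.08 and 2.58 CPM), and Wnt5a was lower, 1 of 5 R-spondin module genes, Rspo3, was lower (−2.68), as was 1 of 11 receptors, Lrp6 (−0.94), and none of 5 targets, 11 components or 1 other inhibitor passed.

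**Figure D3:**
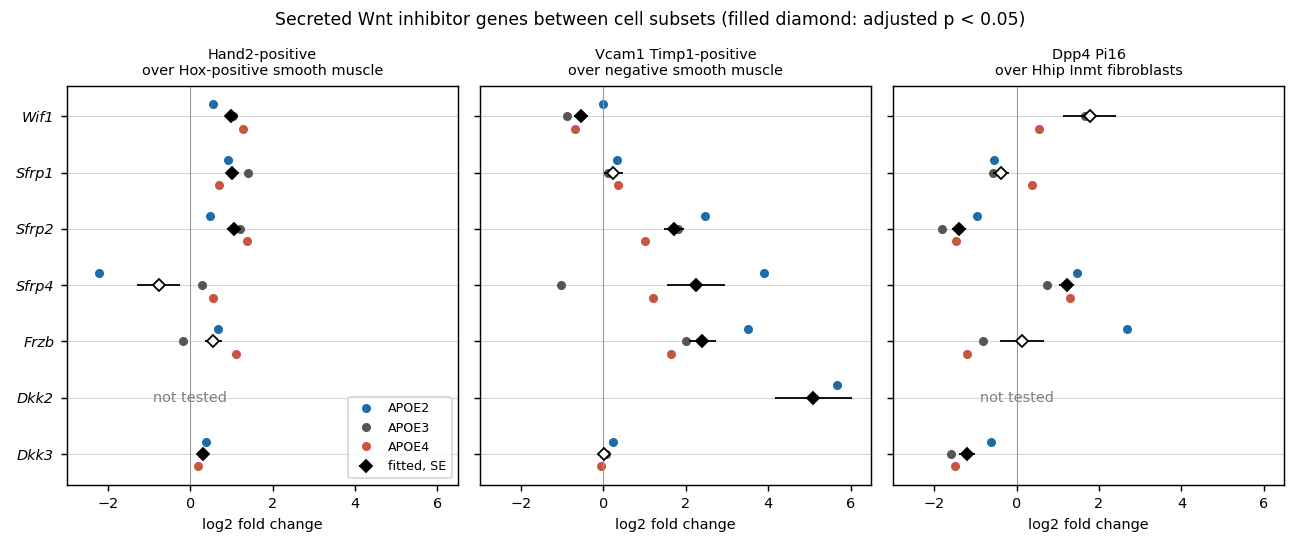
Log2 fold change of each inhibitor gene in 3 comparisons of cell subsets, with 1 point per library and a diamond for the edgeR estimate with its SE (filled where the adjusted p was under 0.05). Dkk2 was tested only between Vcam1 and Timp1 subsets, values with 0 UMIs in an arm are not drawn, and Wif1, Sfrp1, Sfrp2 and Dkk3 lie to the right of 0 in all 3 libraries of the first panel.

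**Figure D4:**
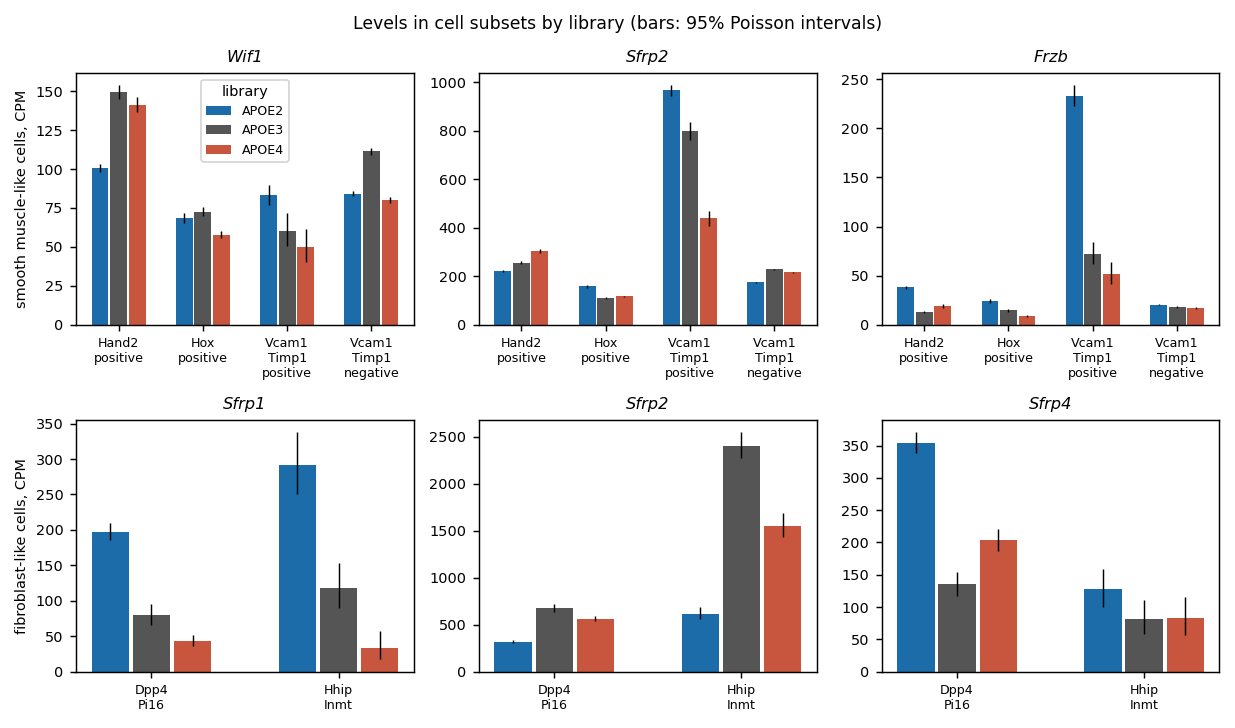
Levels in CPM of Wif1, Sfrp2 and Frzb in subsets of smooth muscle-like cells and of Sfrp1, Sfrp2 and Sfrp4 in subsets of fibroblast-like cells, 1 bar per library with its 95% Poisson interval. The Frzb bar of Vcam1 and Timp1-positive cells is at 233.2 CPM in APOE2 against 72.4 and 52.2 CPM in APOE3 and APOE4, and the Sfrp1 bars fall from APOE2 to APOE3 to APOE4 in both fibroblast subsets.

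Smooth muscle-like cells with at least 2 Wif1 UMIs at 3000 UMIs (339, 287 and 233 cells) were compared with those with none (6531, 3644 and 4963) to see what else marks cells rich in Wif1. None of the other 5 inhibitor genes tested passed in edgeR, where 1.96% of 15060 genes did. An unadjusted p under 0.05 was reached in edgeR by 3 of the 5 (Sfrp2, Dkk3 and Sfrp4) and by 1695 of the 15060 genes. DESeq2 also called 0, with 2 of 6 at an unadjusted p under 0.05, as were 886 of its 19115 genes. In edgeR 1 inhibitor gene passed with no filter on low counts, and 1 without the highest Scrublet scores. Sfrp2 was at 378.9, 294.6 and 239.0 CPM in Wif1-positive cells and at 262.0, 263.0 and 232.1 CPM in Wif1-zero cells, higher in all 3 libraries by little (log2 difference 0.30, SE 0.0785, edgeR adjusted p = 0.064). Without the APOE3 library Sfrp2 (0.35, edgeR adjusted p = 0.00012) and Dkk3 (0.29, edgeR adjusted p = 0.0049) did pass. Frzb (0.19), Sfrp1 (−0.20) and Sfrp4 (−0.57) did not pass in the 3 libraries together.

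Hand2 was higher and Hox genes lower in the cells rich in Wif1, and Spp1, Mmp3 and Timp1, a secreted matrix phosphoprotein, a matrix protease and a protease inhibitor gene, were lower. The 5 with the smallest adjusted p that were higher were Sparcl1 (log2 difference 0.79, edgeR adjusted p = 1.0e-07), Kcnj15 (0.88), Mfap4 (0.72), Igfbp2 (0.64) and 2210407C18Rik (0.77), and the 5 that were lower were Spp1 (−2.89, edgeR adjusted p = 2.1e-08), Mmp3 (−1.81), Timp1 (−1.89), Cygb (−3.36) and Csmd1 (−6.64). Spp1 and Csmd1 had no UMI in Wif1-positive cells of APOE3 and APOE4. The Hand2 difference was 0.77 (edgeR adjusted p = 0.0008), and the Hox genes that passed were Hoxa7, Hoxb7 and Hoxb8, 3 of 7 tested. Of 6 pericyte markers tested none was higher and Rgs5 was lower (−0.54, edgeR adjusted p = 0.0053). Sost (0.27, edgeR adjusted p = 0.021) and Wnt16 (0.51, edgeR adjusted p = 0.00026), which shared the class pattern of Wif1, were higher, and the target Ccnd1 was lower, while none of 15 receptors, 5 R-spondin module genes or 12 components passed. Of 10 fibroblast markers 4 were lower and none higher, and of 10 smooth muscle markers 2 (Cnn1 and Des) were higher. All 295 calls were lost when the library was not a block, and 62 genes passed without APOE4.

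Between the genotype libraries, Frzb, Sfrp4 and Dkk2 stood apart in smooth muscle-like cells at the main clustering, and Sfrp1 and Sfrp2 in fibroblast-like cells. Frzb in smooth muscle-like cells was at 44.0, 21.9 and 18.3 CPM, a log2 ratio of 1.01 for APOE2 to APOE3 (counting interval 0.94 to 1.08) and of −1.27 for APOE4 to APOE2. Sfrp4 followed the same order of APOE2 above the others (7.95, 3.79 and 3.93 CPM), with a log2 ratio of 1.07 (0.90 to 1.24) for APOE2 to APOE3, and Dkk2 was counted 145, 1 and 6 times. For these 3 of 7 genes the ratio of APOE2 to APOE3 passed 1.5-fold, where 12.5% of 15333 genes did. The pairs share libraries and are not independent. For APOE4 to APOE2 the same 3 of 7 passed, where 17.2% of 15530 genes did, and for APOE4 to APOE3 none of 6 passed, where 11.7% of 15047 genes did. Wif1 (log2 ratios −0.31 for APOE2 to APOE3 and −0.42 for APOE4 to APOE3) and Dkk3 (−0.24 and −0.53) were highest in APOE3 without reaching 1.5-fold, and Sfrp2 differed by 0.06 and −0.16. The median log2 ratio over all genes was 0.05, −0.08 and −0.11 for the 3 pairs in smooth muscle-like cells and within 0.10 of 0 in fibroblast-like cells.

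The APOE2 to APOE3 ratio of Frzb and Sfrp4 was larger in Vcam1 and Timp1-positive than in Vcam1 and Timp1-negative smooth muscle-like cells. On the log2 scale it was 1.69 for Frzb and 4.96 for Sfrp4 in positive cells, and 0.18 and 0.04 in negative cells. The Sfrp4 value came from 457 against 4 UMIs, with 252 of the 457 in 1 cell. Positive cells made up 3.57%, 1.6% and 1.17% of the class. In APOE2 they held 1881 of the 5545 Frzb UMIs and negative cells held 2083. Cells in neither subset were not compared. Finer or coarser clustering left only 785 or 747 of the 1434 cells of the Spp1 and Vcam1 cluster in the smooth muscle-like class, and the Frzb ratio was then 0.53 or 0.47 and the Sfrp4 ratio 0.30 or 0.26, so that neither passed. The Dkk2 level of APOE2 in smooth muscle-like cells was then 0.253 or 0.256 CPM in place of 1.15 CPM, and Dkk2 did not pass either. With classes drawn from each cell's own markers this Dkk2 level was 0.493 CPM. A single APOE2 cell held 252 of the 1002 Sfrp4 UMIs, and without the top cell the Sfrp4 ratio was 0.68. By position, the Frzb ratio of APOE2 to APOE3 was 1.55 in Hand2-positive and 0.71 in Hox-positive cells, and Hand2-positive cells made up 40.0%, 27.4% and 17.7% of smooth muscle-like cells and Hox-positive cells 19.5%, 32.9% and 39.9%, so that the class levels of Wif1 and Sfrp2 compare different mixtures. Within Hand2-positive cells the log2 ratio of APOE4 to APOE2 was 0.49 for Wif1 and 0.46 for Sfrp2, and within Hox-positive cells it was −0.24 and −0.44.

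In fibroblast-like cells Sfrp2 was lowest in APOE2 and Sfrp1 lowest in APOE4. Sfrp2 was at 660.5, 1658 and 1362 CPM, a log2 ratio of −1.33 for APOE2 to APOE3, and the ratio stayed between −1.34 and −1.13 under every alternative tried. It was −1.09 within Dpp4 and Pi16 cells and −1.96 within Hhip and Inmt cells, although the Dpp4-led cluster, low in Sfrp2, made up 49.0% of the fibroblast-like cells of APOE2 against 31.2% and 24.2% in APOE3 and APOE4. Sfrp1 was at 244.8, 233.1 and 71.7 CPM, a log2 ratio of −1.70 for APOE4 to APOE3 (−1.81 to −1.61 under every alternative) and of −1.77 for APOE4 to APOE2. It was also lowest in APOE4 in each fibroblast cluster and in each of the fibroblast subsets. The APOE2 and APOE3 libraries, close in the class as a whole, differed within the subsets, with a log2 ratio of 1.31 in Dpp4 and Pi16 cells and 1.30 in Hhip and Inmt cells. The clusters went both ways, with Sfrp1 higher in APOE2 than in APOE3 in the Fmod-led cluster and lower in the Dpp4-led cluster. The latter held 70.5% and 69.4% of the Sfrp1 UMIs of the class in APOE2 and APOE3.

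Of 6 inhibitor genes measured in fibroblast-like cells, 1 passed 1.5-fold for APOE2 to APOE3 (Sfrp2), where 11.2% of 12009 genes did, 1 for APOE4 to APOE3 (Sfrp1), where 9.74% of 11586 genes did, and 3 for APOE4 to APOE2 (Sfrp1, Sfrp2 and Frzb), where 13.5% of 12186 genes did. Dkk3 came close to the 1.5-fold line for APOE2 to APOE3 (158.8 against 236.4 CPM, log2 ratio −0.57) and Frzb for APOE4 to APOE3 (20.1 against 29.2 CPM, −0.54). Among the other inhibitors Sost was past 1.5-fold lower in APOE2 than in APOE3 in smooth muscle-like cells, at 602.3, 1063 and 967.2 CPM. Of 9 ligands measured there 4 were past 1.5-fold higher in APOE2 than in APOE3 and none lower, as were 3 of 7 targets. These ligands were sparse, such as Wnt6 (75 against 27 UMIs) and Wnt10a (72 against 5 UMIs). Over all genes 12.5% of 15333 passed for this pair, 1459 higher and 459 lower. For APOE4 to APOE3, 4 of 8 ligands were higher and 1 lower, and 2 of 7 targets were higher and 1 lower. Over all genes 11.7% of 15047 passed for that pair. In smooth muscle-like cells the ligand Wnt16 was at 61.4, 75.7 and 38.1 CPM, the target Myc at 5.14, 7.12 and 15.9 CPM, and none of 12 intracellular components passed 1.5-fold in either comparison with APOE3. In fibroblast-like cells 5 of 9 ligands were past 1.5-fold lower in APOE2 than in APOE3 and none higher, and Rspo3 was at 11.3, 36.5 and 15.8 CPM. Most of these ligands were sparse there, such as Wnt6 (61 against 58 UMIs) and Wnt16 (44 against 63 UMIs). The Dpp4-led cluster made up 49.0% of the fibroblast-like cells of APOE2 against 31.2% in APOE3. Its part in the ligand and Rspo3 ratios was not tested.

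**Figure D5:**
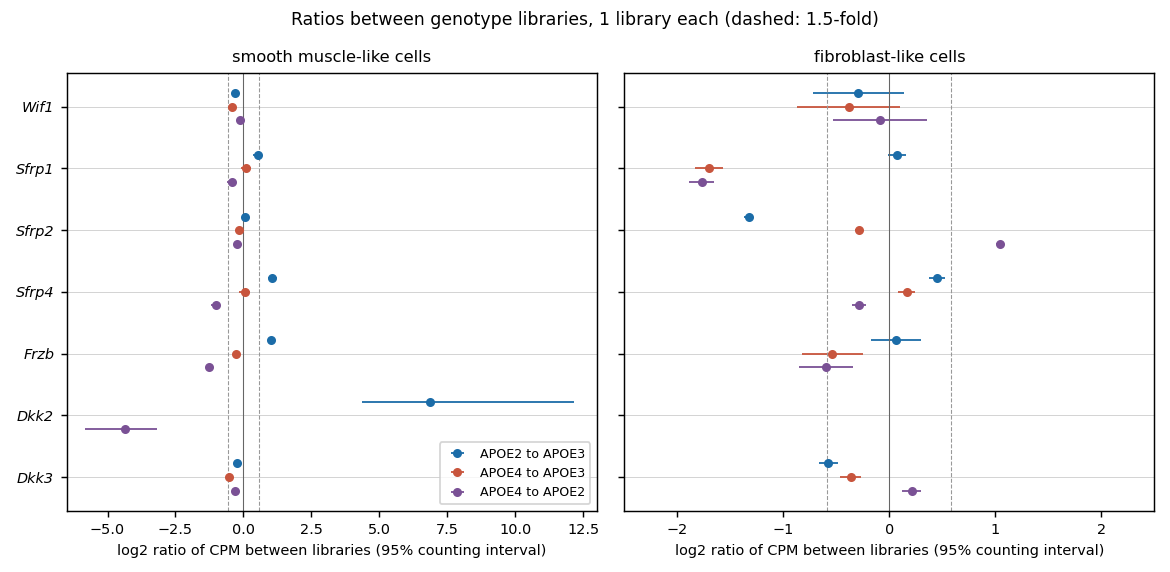
Log2 ratios of CPM between the genotype libraries for each inhibitor gene in smooth muscle-like and fibroblast-like cells, with 95% counting intervals and dashed lines at 1.5-fold, 1 library per genotype. Points for Frzb, Sfrp4 and Dkk2 lie past the lines for the pairs with APOE2 in smooth muscle-like cells, and those for Sfrp1 (−1.70 and −1.77, pairs with APOE4) and Sfrp2 (−1.33 and 1.05, pairs with APOE2) in fibroblast-like cells; gene and pair combinations with under 50 UMIs are not drawn.

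The genes whose levels over the 21 clusters were most like each inhibitor, by Pearson's r of log2 CPM with the 3 libraries summed and 10305 genes compared, differed from one inhibitor to the next. For Wif1 they included Pbxip1 (0.941) and Cav3 (0.935), the latter encoding a muscle membrane protein. For Sfrp4 they were Pdgfra (0.979), a fibroblast marker, Pcolce (0.972) and Lgi2 (0.968), for Sfrp2 Btd (0.924), Mfap2 (0.922) and Chrdl1 (0.914), and for Frzb Lnx1 (0.927), Ecrg4 (0.91) and Ltbp2 (0.899). For Dkk3 they included Fzd2 (0.965), itself a Wnt receptor gene, and Ecm2 (0.944), for Sfrp1 they were Adh1 (0.934), Fgd5 (0.93) and Unc45b (0.93), and for Dkk2 Cda (0.943), Palmd (0.938) and Stap2 (0.937). The clusters share their libraries and depth, so that these values describe the pattern and carry no test.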

How the data were processed

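The authors aligned droplet-based single-cell reads to the mouse genome (mm10) with Cell Ranger, version 7.0.1 per the file headers, and deposited, for each pooled library, UMI counts per gene and cell that were not normalized. The members and gene lists were chosen with earlier results of these data known. Cells with at least 200 genes and under 20% mitochondrial UMIs were kept (168310501, 125105151 and 124926887 UMIs in the APOE2, APOE3 and APOE4 libraries), normalized with sctransform 0.4.2, integrated by canonical correlation anchors in Seurat 5.3.0 (3000 features, none of them an inhibitor or listed Wnt gene, and 30 components) and clustered by the Louvain method at resolution 0.8. Clusters other than smooth muscle-like ones were named from at least 3 markers, found in 10% of cells and raised 2-fold. The smooth muscle-like name followed another rule and did not need raised markers. It was given where 8 or more of the 10 muscle genes reached 50% of the all-cell level and no other type qualified. In all, 5 clusters (2 of low UMI counts and 3 with markers of 2 types) stayed unnamed. Scrublet's own threshold marked 1, 0 and 2 cells, so doublets were not removed, and leaving out the 8% with the highest scores was tried as an alternative.

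UMIs were summed by library and class or subset and given as CPM. With 1 library per genotype, genotypes were compared by ratios with exact 95% conditional binomial intervals and no test, over genes with at least 50 UMIs in both libraries together, and past 1.5-fold was counted. Subsets were compared with edgeR 4.0.16 (TMM, filterByExpr, quasi-likelihood test, library as block, Benjamini-Hochberg over all genes tested, called at 0.05), with DESeq2 1.42.0 as an alternative. Hand2 and Hox subsets used cells of at least 5000 UMIs, fibroblast subsets at least 2 UMIs on 1 pair of genes and none on the other, and the Vcam1 with Timp1 and Wif1 subsets cells thinned to 3000 UMIs, whose deposited counts were then summed. The library pairs the sums because both come from the same pool of mice, and their deviations correlated at 0.327 to 0.758. The SE given with an edgeR log2 difference was derived from the test, as the size of the difference divided by the square root of its F value. A count of 0 allows up to 3 counts. Intervals and limits cover counting error only. The model fits were tested on simulated data. All 7 inhibitor genes are always given. Of a Wnt list at most 4 genes are named, those with the largest log2 difference among genes of at least 100 UMIs. The genes named between smooth muscle-like and fibroblast-like cells were not picked by this rule. Other listed genes, Wnt10b and Rspo1 among them, were separated more there than Wnt5a and Lgr6. For the Wif1 subsets, the 5 genes with the smallest adjusted p in each direction are named, and the 3 most alike by cluster for each inhibitor (genes of at least 20 CPM, clusters of at least 50 cells, log2 of CPM + 1). Some genes that these rules name are not reported here.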

Additional observations from a re-analysis of the deposited data

Results flagged for a closer look

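Some ratios between genotype libraries had opposite signs in different cell classes or subsets. With 1 library per genotype these differences were not tested. Sfrp2 was higher in APOE2 than in APOE3 by 0.0646 on the log2 scale in smooth muscle-like cells and differed by −1.33 in fibroblast-like cells, and for APOE4 to APOE2 the ratios were −0.222 and 1.04. Dkk3 for APOE4 to APOE2 was at −0.293 in smooth muscle-like and 0.21 in fibroblast-like cells.

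By position within smooth muscle-like cells, Sfrp2 for APOE2 to APOE3 was at −0.203 in Hand2-positive and 0.515 in Hox-positive cells, and for APOE4 to APOE2 at 0.457 and −0.44. Wif1 for APOE4 to APOE2 was at 0.489 in Hand2-positive and −0.239 in Hox-positive cells, and Frzb for APOE4 to APOE3 at 0.545 and −0.744.

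Between Vcam1 and Timp1-positive and negative smooth muscle-like cells, Wif1 for APOE2 to APOE3 was at 0.461 and −0.405, and Sfrp2 at 0.275 and −0.386. Sfrp2 for APOE4 to APOE2 was at −1.14 in the positive and 0.307 in the negative cells.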

How the results depend on the processing

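Each genotype had 1 library, so that its ratios carry counting error only, and sparse genes (Dkk2, and Wif1 in fibroblast-like cells) were limited by depth. Among member fold changes between subsets, 187 planned and 37 added alternatives kept their direction and call. The sign turned in 7 planned and 1 added, a call was gained in 8 planned, and a call was lost in 11 planned and 2 added. Member ratios between libraries left the counting interval of the main setting in 91 planned and 4 added alternatives, and stayed within it in 243 and 36. The cause of the changes below was not tested. Without the library as a replicate block, 2 inhibitor genes passed between Hand2 and Hox subsets in place of 4 (Sfrp1 1.00, adjusted p = 0.058 and Dkk3 0.31, adjusted p = 0.57 in edgeR were lost), 1 in place of 3 between fibroblast subsets (Sfrp2 −1.54, adjusted p = 0.10 and Sfrp4 1.26, adjusted p = 0.094 were lost), Wif1 lost its call between Vcam1 and Timp1 subsets (−0.54, adjusted p = 0.13), and 0 genes passed with Wif1 (589 at an unadjusted p under 0.05). Over all genes, calls without the block fell from 2322 to 247 by position and from 638 to 271 in fibroblasts.

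With no filter on low counts, 7 inhibitor genes passed by position, 604 genes with Wif1 and 1076 between fibroblast subsets, and Dkk3 between Vcam1 and Timp1 subsets was at −0.0441. DESeq2 called 150 genes with Wif1 in place of 295, 1407 by position and 322 in fibroblasts. Leaving out 1 library gave 3 to 4 inhibitor genes in place of 5 between Vcam1 and Timp1 subsets, 62 to 581 genes with Wif1, and by position 1198 genes without APOE3 and 1455 without APOE4. Leaving out 1 library gave −1.25 to 0.431 for Sfrp4 by position and −0.973 to 0.718 for Frzb in fibroblasts, with the sign turned without APOE2. Without APOE2, Dkk3 between Vcam1 and Timp1 subsets was at −0.102, and with Wif1 Sfrp1 was at 0.26 and Frzb at −0.0108. With the other cell cut Frzb in fibroblasts was at −0.0602. Without the highest Scrublet scores 3 inhibitor genes passed between Vcam1 and Timp1 subsets, as did 3 without the top cell of each gene, where Sfrp1 was at −0.0528; the latter choice, like leaving out the Dlx6 and Prss12 cluster, was made after seeing the data.

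Genes past 1.5-fold changed as follows. In smooth muscle-like cells 0 in place of 3 passed for APOE2 to APOE3, and 1 in place of 3 for APOE4 to APOE2, at resolutions 0.4 and 1.6. In fibroblast-like cells 3 in place of 1 passed for APOE2 to APOE3 without the highest Scrublet scores and at resolution 1.6, and 4 with classes by each cell's own markers. For APOE4 to APOE3, 2 in place of 1 passed at resolution 1.6, by own markers and without the top cells, and for APOE4 to APOE2, 5 in place of 3 passed by own markers.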
